A study of Mus musculus with 6 samples.

Results

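Axin2, Tcf7, Sp5, Myc and Ccnd1, 5 genes that beta-catenin or its target Myc is known to act through, were followed in tumorspheres of a pair of mouse ovarian cancer cell lines. They were taken from the deposited expression table by gene name, and all 5 were found among its 7320 genes. That table lists only genes the authors had already called different between the lines, which is 42.2% of the 17359 genes that entered their test, so presence in it was set by the same libraries. The lines were ID8, derived from transformed ovarian epithelial cells of C57Bl6 mice, and KMF, also labelled ID8-IP, which are ID8 cells that had been passaged through mice and returned to culture, and in which the study found DNA gains, among them gains of Myc. Each line had 3 RNA libraries from tumorspheres, which are floating clusters of cells, after 5 days in serum-free medium with no further treatment. ID8 replicates 1, 2 and 3 were made at passages 23, 24 and 35, and KMF replicates 1, 2 and 3 at passages 14, 17 and 22. Every ID8 library was thus of a later passage than every KMF library, so line and passage vary together and are separated only in part, by the spread of passages within each line. KMF is a single derivative line, so each comparison is of 1 line with its parent.

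In canonical Wnt signalling a Wnt ligand binds Frizzled and LRP receptors at the cell surface and stops a cytoplasmic destruction complex from marking beta-catenin for degradation. Beta-catenin then enters the nucleus, where it works with DNA-binding proteins of the TCF/LEF family. Axin2 is a target that feeds back, because its protein is a scaffold of the destruction complex. Tcf7 encodes TCF-1, a TCF/LEF protein, and Sp5 encodes a zinc finger transcription factor that is a direct target in many cell types. Myc encodes a transcription factor that drives growth genes together with Max, and Ccnd1 encodes cyclin D1, which activates Cdk4 and Cdk6 at the start of the cell cycle. The pathway was of interest in the study as a feature of cancer stem cell behaviour in KMF tumorspheres.

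Sequence upstream of the start that the table gives was found in the RefSeq tables (GRCm38.p6) for Axin2, Tcf7 and Sp5. The promoters of Sp5 and Axin2 are shown because these are the genes of the set most widely used to read out beta-catenin activity, and because their RNA differed between the lines in opposite directions. Each run is the 250 bases before the start, 5′ to 3′ on the plus strand, which is the strand of both genes. Sp5 is at chr2:70474673-70474922 and Axin2 at chr11:108920099-108920348. Capitals mark matches to the TCF/LEF letters on either strand, which are CTTTG followed by AA, by AT, by TA or by TT.
Sp5: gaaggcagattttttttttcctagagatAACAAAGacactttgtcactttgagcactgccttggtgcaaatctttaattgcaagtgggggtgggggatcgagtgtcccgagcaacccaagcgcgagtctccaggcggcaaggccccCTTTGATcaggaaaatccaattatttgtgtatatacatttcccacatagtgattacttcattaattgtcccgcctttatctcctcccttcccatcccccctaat
Axin2: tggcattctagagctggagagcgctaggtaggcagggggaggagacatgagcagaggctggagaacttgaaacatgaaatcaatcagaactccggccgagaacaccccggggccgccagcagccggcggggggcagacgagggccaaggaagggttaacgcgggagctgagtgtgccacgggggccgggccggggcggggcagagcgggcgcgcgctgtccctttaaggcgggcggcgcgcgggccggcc
The Sp5 run holds 2 matches, AACAAAG with its first base 222 bases before the start and CTTTGAT at 104 bases before it. No match was present in the Axin2 run or in the corresponding Tcf7 window. The Tcf7 window is placed only by the start that the table gives. It holds an ATG followed by an open reading frame that runs to the start, so it is not read here as a promoter. Over 32851 RefSeq promoter windows of 300 bases (250 before to 50 after a start), 16.9% hold at least 1 such match. The E-box letters CACGTG, which Myc with Max is known to bind, were in neither the Sp5 nor the Axin2 window and in 7.15% of all windows. Among the lists described below, an E-box was in 5 of 26 Myc targets with a window (19.2%) and in 2 of 9 other beta-catenin targets (22.2%), beside 8.09% of 27025 genes with a window. The TCF/LEF letters were in 4 of the 26 Myc targets (15.4%) and in 1 of the 9 other beta-catenin targets (11.1%), beside 18.9% of genes. A match is a description of letters, and its absence says only that these letters are not in the window.

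Levels are given as FPKM (fragments scaled to gene length in kilobases and to the fragments on genes in the library), as deposited, so that genes of different length can be set side by side. Counts were tested with edgeR's quasi-likelihood test, and a gene is termed called where its Benjamini-Hochberg adjusted p-value, taken over the 17359 genes, was under 0.05. All log2 fold changes are KMF over ID8. Library depth ranged from 23108407 to 33212313 fragments on genes, at which 3 counts correspond to between 0.0903 and 0.13 CPM (a count relative to all fragments on genes in its library). All 5 genes were called, with Axin2, Tcf7, Myc and Ccnd1 higher and Sp5 lower in KMF, and for each of the 5 the libraries of the lines did not overlap. Of the 6967 listed genes that passed the filter on low counts, 92.9% were called, 45.4% higher and 47.5% lower, and 96.6% did not overlap between the lines, so that passing these tests does not set the 5 apart from the other genes of the table. The p-values below carry the same limit, since the genes had been selected on these libraries, and they measure only the spread among the 3 cultures of a line.

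**Figure D1:**
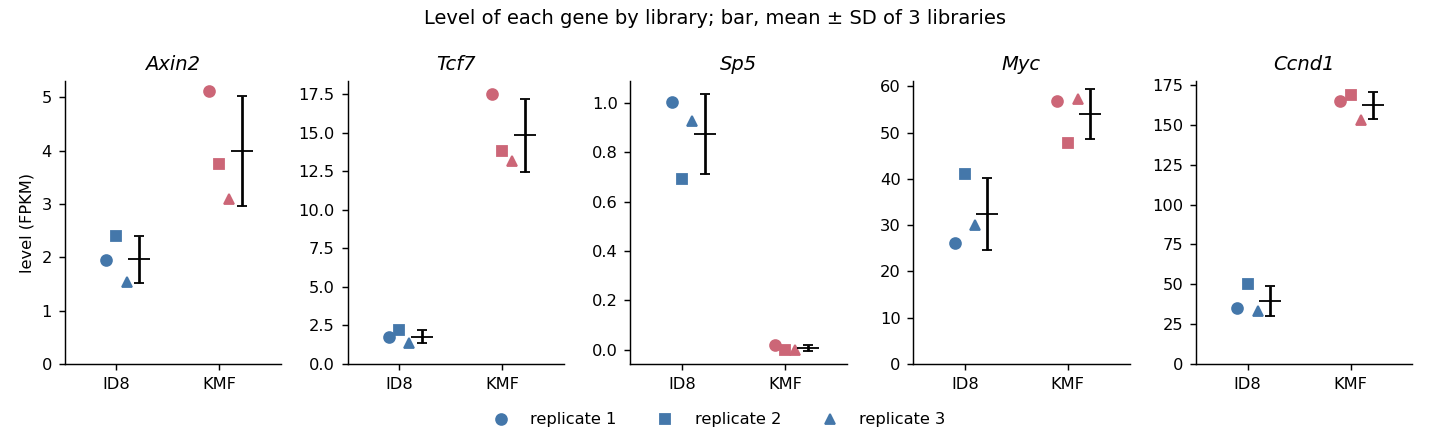
Level of each gene in FPKM on the vertical axis, on a separate linear scale for each gene, in the 3 ID8 and 3 KMF libraries (points, shaped by replicate number), with the mean ± SD beside them. The KMF points lie above all ID8 points for Axin2, Tcf7, Myc and Ccnd1 and below them for Sp5, where KMF replicates 2 and 3 are at 0.

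Axin2 (ENSMUSG00000000142, chr11:108920349-108950783, plus strand, GRCm38) encodes the feedback scaffold. Its level was 1.96, 2.40 and 1.53 FPKM in ID8 replicates 1, 2 and 3 and 5.13, 3.75 and 3.10 FPKM in KMF replicates 1, 2 and 3. The groups did not overlap, with ID8 replicate 2 as the highest of its line and KMF replicate 3 as the lowest of the other. The ID8 mean was 1.96 ± 0.437 FPKM and the KMF mean 3.99 ± 1.04 (SD over 3 libraries each). These values rest on 246, 247 and 167 counts in ID8 and 515, 369 and 438 in KMF. The fitted log2 fold change was 1.06 ± 0.24 (SE), a 2.09-fold higher level, with an adjusted p of 0.0102 by edgeR, a call that was lost when passage entered the fit (described after the 5 genes). Of the 6967 fitted genes, 17.3% had a larger rise. An annotated antisense gene, Gm11670, overlaps Axin2 and is not in the table, and whether the counting used strand is not given in the sources used here.

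Tcf7 (ENSMUSG00000000782, chr11:52252371-52283014, minus strand) encodes the TCF/LEF protein TCF-1 and differed most among the 4 genes that were higher in KMF. It was at 1.73, 2.21 and 1.39 FPKM in the ID8 libraries and at 17.5, 13.8 and 13.2 FPKM in the KMF libraries. The lowest KMF library was far above the highest ID8 library, and the order of replicates within ID8 was the same as for Axin2. Means were 1.78 ± 0.415 and 14.8 ± 2.36 FPKM (SD, n = 3 each), from 88 to 132 counts per ID8 library and 788 to 1081 per KMF library. The log2 fold change was 3.10 ± 0.21, or 8.58-fold, with an edgeR adjusted p of 3.77e-05. It was 2.51 in limma on log2(FPKM + 1), a scale that understates the change of low genes. Tcf7 ranked 206 by rise, with 2.94% of fitted genes above it. In ID8, 24.7% of the listed genes had a lower mean FPKM than Tcf7, and in KMF 62.9% had. Gm26551 on the same strand and A630014C17Rik on the opposite strand overlap Tcf7. The first is not in the table, and the other was at 0.0177 FPKM in ID8 and 0.116 in KMF on average.

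Sp5 (ENSMUSG00000075304, chr2:70474923-70477729, plus strand), the zinc finger factor, went the other way. It had 62, 35 and 50 counts in ID8 replicates 1, 2 and 3 and 1, 0 and 0 counts in KMF replicates 1, 2 and 3. In FPKM this is 1.001, 0.690 and 0.928 in ID8 and 0.0202, 0 and 0 in KMF, so a low but detected transcript in each ID8 library was at or next to 0 in each KMF library. ID8 replicate 2, which was the highest of its line for the other 4 genes, was the lowest for Sp5. The pooled CPM of the ID8 libraries was 148.1 times that of the KMF libraries, with an exact 95% interval of 26.2 to 5890.7 that covers counting error only. This ratio rests on the 1 count of KMF replicate 1. Without that library KMF holds 0 counts, and Sp5 was at least 16.7-fold lower against a floor of 3 counts per library. Its edgeR adjusted p was 0.000176, and it passed the filter on low counts through its ID8 libraries alone. At this depth 3 counts of Sp5 would be 0.0430 to 0.0618 FPKM, so a KMF level under that is not told apart from 0.

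Myc (ENSMUSG00000022346, chr15:61985341-61990374, plus strand) had the smallest difference of the 5 in the fit without passage, though not with passage as a covariate. The ID8 libraries were at 26.2, 41.1 and 29.9 FPKM and the KMF libraries at 56.9, 47.9 and 57.3 FPKM. The lines came closest in replicate 2 of each, where ID8 was at its highest and KMF at its lowest. The ID8 mean was 32.4 ± 7.77 FPKM and the KMF mean 54.1 ± 5.36 (SD over 3 libraries each), from 1836 to 4552 counts per library. The log2 fold change was 0.78 ± 0.17, a 1.71-fold higher level, and the edgeR adjusted p was 0.00848. As for Axin2, the call was lost with passage in the fit. A larger rise was found for 23.0% of fitted genes. The RNA data give no copy number, and how the level of Myc RNA relates to the DNA gain of KMF was not tested. The study reports further DNA gains and losses in KMF. Their part in the RNA levels of the other genes named here, including those of the lists below, was not tested either.

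Ccnd1 (ENSMUSG00000070348, chr7:144929931-144939869, minus strand), the gene of cyclin D1, was the most abundant of the 5 per length in both lines. Its level was 34.9, 50.1 and 33.4 FPKM in ID8 and 165, 168.7 and 152.8 FPKM in KMF. Every KMF library was above every ID8 library by a wide margin, and KMF libraries lay close together, with a coefficient of variation of 5.12% beside 23.4% in ID8. Means were 39.5 ± 9.23 and 162 ± 8.30 FPKM (SD, n = 3 each), and counts ran from 3205 in ID8 replicate 3 to 18982 in KMF replicate 3. The log2 fold change was 2.08 ± 0.17, or 4.22-fold, with an edgeR adjusted p of 7.35e-05, and 7.28% of fitted genes had a larger rise. Of the listed genes, 85.3% had a lower mean FPKM in ID8 and 97.0% in KMF. The protein-coding gene LTO1 overlaps Ccnd1 on the opposite strand and is not in the table.

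Within ID8 the order by mean FPKM was Ccnd1, Myc, Axin2, Tcf7 and Sp5. The ID8 ranges of Ccnd1 and Myc overlapped, as did those of Axin2 and Tcf7, although within each ID8 library Ccnd1 was above Myc and Axin2 above Tcf7. In KMF the order was Ccnd1, Myc, Tcf7, Axin2 and Sp5, with no overlap between neighbours. Tcf7 and Axin2, which were at a like level in ID8, thus stood apart in KMF. Leaving out 1 library at a time, the log2 fold change stayed between 0.85 and 1.24 for Axin2, between 2.95 and 3.30 for Tcf7, between 0.64 and 0.996 for Myc and between 1.97 and 2.30 for Ccnd1, and each of the 4 was still called. The highest adjusted p of these was 0.0394, for Axin2 without ID8 replicate 1.

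Because passage differs between the lines, the 5 genes were also fitted with passage as a covariate beside the line, which was added after seeing the data and leaves 3 residual degrees of freedom. Tcf7 (log2 fold change 2.67 ± 0.22, edgeR adjusted p = 0.000234) and Ccnd1 (1.83 ± 0.21, adjusted p = 0.000878) were still called, as was Sp5 (adjusted p = 0.00123), which had to differ to pass the filter. Axin2 and Myc were not, with 0.49 ± 0.25 (adjusted p = 0.249) and 0.70 ± 0.25 (adjusted p = 0.0939). Of all 6967 fitted genes 60.6% were called in this fit, so that 3 of 5 is close to the share in the table. In the libraries nearest in passage, KMF replicate 3 at 22 and ID8 replicate 1 at 23, the levels were 13.2 and 1.73 FPKM for Tcf7, 152.8 and 34.9 for Ccnd1, 57.3 and 26.2 for Myc, 3.10 and 1.96 for Axin2 and 0 and 1.001 for Sp5. The lines did not overlap for any of the 5 genes, so any such pair shows these directions, and this one says nothing about passage.

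**Figure D2:**
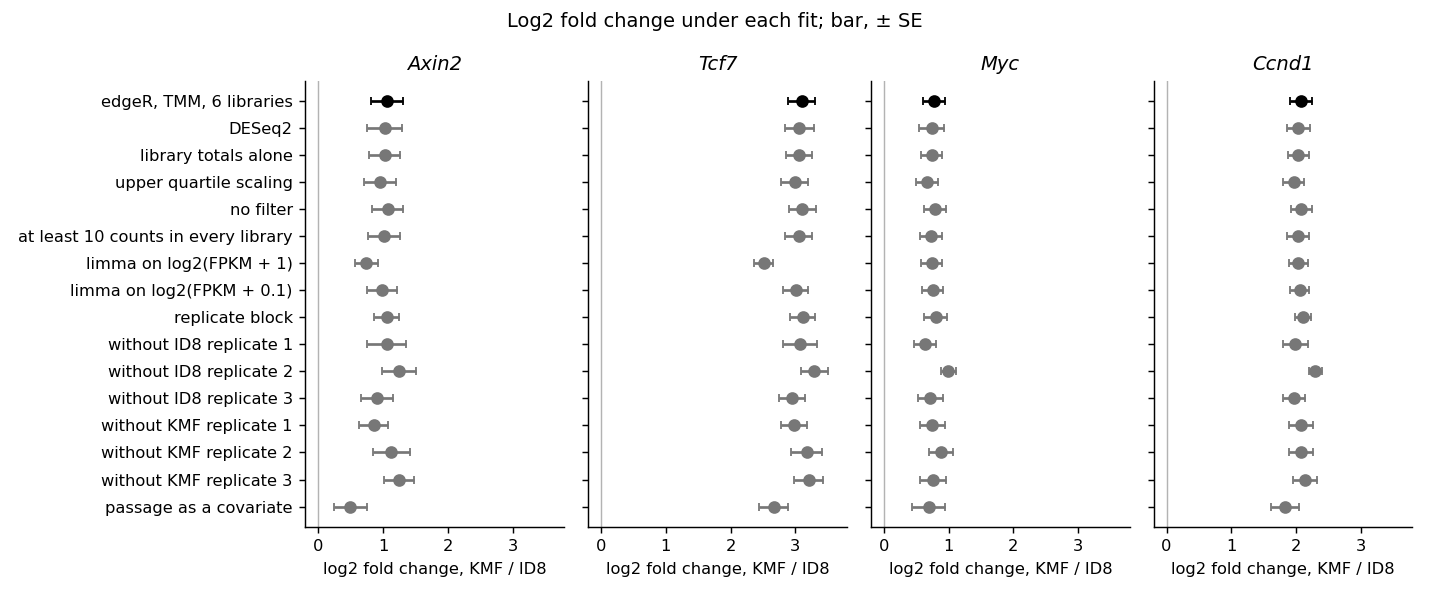
Log2 fold change of KMF over ID8 (horizontal axis) for the 4 genes higher in KMF under the main edgeR fit (black) and 15 alternatives (grey), with bars of ± 1 SE. All estimates lie above 0, and the lowest are 0.49 for Axin2, with passage as a covariate, and 2.51 for Tcf7, in limma on log2(FPKM + 1).

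Genes of the same families were set beside the 5 as ratios of FPKM within each library, which do not depend on how libraries are scaled to each other. Ccnd1 over Ccnd2, the gene of cyclin D2, was 0.327, 0.417 and 0.380 in ID8 and 2.30, 2.31 and 2.01 in KMF. Cyclin D2 RNA was therefore the more abundant of the pair in every ID8 library and cyclin D1 RNA in every KMF library. Ccnd2 itself was at 107, 120 and 87.9 FPKM in ID8 against 71.8, 73.0 and 75.9 in KMF (log2 fold change -0.47 ± 0.12, edgeR adjusted p = 0.0157). That call was lost without ID8 replicate 1 and without KMF replicate 2, where the adjusted p reached 0.0501 and 0.0524. Ccnd1 over Cdk4, the kinase that cyclin D1 activates, moved from 0.353, 0.494 and 0.355 to 1.28, 1.53 and 1.26. Cdk4 had a log2 fold change of 0.33 ± 0.08 (adjusted p = 0.0146), which was no longer called under upper quartile scaling, at 0.0845, or without ID8 replicate 1, at 0.0524.

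The ratio of Myc to Mycn, the related gene of N-Myc, was 5.87, 7.36 and 4.09 in ID8 and 33.8, 26.9 and 79.5 in KMF. Mycn was lower in KMF, at 4.46, 5.58 and 7.32 FPKM in ID8 against 1.68, 1.78 and 0.722, with a log2 fold change of -2.02 ± 0.35 (edgeR adjusted p = 0.00281). Mycl, the L-Myc gene, had 42, 28 and 28 counts in ID8 and 5, 0 and 2 in KMF (log2 fold change -3.69 ± 0.65, adjusted p = 0.0029), and the estimate was -4.91 without KMF replicate 1. Mycl passed the filter on low counts through its ID8 libraries alone. Of the Myc family, then, the most abundant gene was the one that was higher in KMF.

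Tcf7 over Tcf7l1, the gene of TCF-3, which is best known as a repressor, was 0.768, 0.956 and 1.03 in ID8 and 2.29, 2.31 and 1.77 in KMF. Tcf7l1 itself went from 2.25, 2.31 and 1.34 FPKM to 7.65, 5.97 and 7.46 (log2 fold change 1.87 ± 0.23, edgeR adjusted p = 0.000496). Lef1, the other TCF/LEF gene in the table, was lower, with 73, 63 and 25 counts in ID8 and 6, 5 and 19 in KMF (log2 fold change -2.43 ± 0.53, adjusted p = 0.00808). The ratio of Tcf7 to Lef1 was 2.55, 3.10 and 5.21 in ID8 and 252, 233.2 and 84.2 in KMF. Axin2 over Znrf3, another feedback inhibitor, was 0.274, 0.354 and 0.230 in ID8 and 0.567, 0.472 and 0.336 in KMF, and here the ranges overlapped. A two-sided exact permutation test of the log2 ratios gave 0.1 for each pair other than Axin2 and Znrf3, which is the smallest p that 3 against 3 libraries can give, and 0.2 for Axin2 and Znrf3. With 6 ratios tested, none can pass 0.05. Axin1, Tcf7l2, Ctnnb1 (beta-catenin itself), Max, Ccnd3 and Cdk6 are not in the table and were not analysed here.

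**Figure D3:**
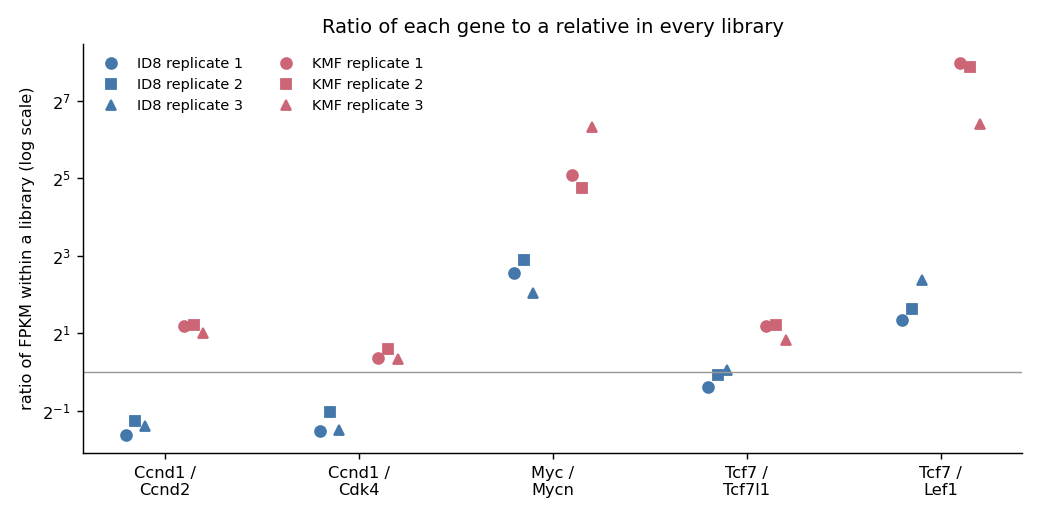
Ratio of FPKM of 5 gene pairs within each library, on a log axis (base 2), with ID8 libraries in blue and KMF libraries in red, shaped by replicate number. Ratios of both Ccnd1 pairs are below 1 in ID8 and above 1 in KMF, and for all 5 pairs shown the KMF points lie above the ID8 points.

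The wider pathway was described with 10 lists of genes, of which only members in the table could be examined. The lists share some genes (Lef1, Notum, Znrf3, Apcdd1 and Ccnd2 are each in 2). Their medians are to be read against -0.23, the median log2 fold change over all 6967 fitted genes, and their counts against the shares called among those genes given above. Values for the lists, and for the neighbours and markers further below, come from the fit without passage. They were not examined with passage as a covariate. Genes that are named only to complete a count of 5 or fewer were chosen after their values were seen. Like Sp5, some genes passed the filter through 1 line alone and so had to differ, namely Cdkn1c and Mycl through ID8 and Wnt1, Notum and Sp8 through KMF.

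Of 25 genes for Wnt ligands and their secretion, 10 were in the table and 8 were fitted, with 3 called higher and 4 lower (median -0.28). Wnt5a, a ligand best known for beta-catenin-independent signalling, fell from 10.3, 12.8 and 10.2 FPKM in ID8 to 0.163, 0.877 and 0.120 in KMF, a log2 fold change of -4.86 ± 0.62 (edgeR adjusted p = 0.000622). It was -6.25 without KMF replicate 2. Its relative Wnt5b, and Wnt10a and Wnt6, were also lower, at -2.78 ± 0.22, -2.19 ± 0.26 and -1.57 ± 0.19. Higher genes were Wnt1, Wnt2 and Wnt10b, which like Wnt10a and Wnt6 are ligands that can act through beta-catenin. Wnt2 was at 7.22, 8.51 and 5.82 FPKM in ID8 and 24.8, 23.0 and 28.6 in KMF (1.86 ± 0.16, adjusted p = 9.02e-05). Wnt1 was near the limit of detection, with 8, 4 and 6 counts in ID8 and 85, 18 and 25 in KMF (2.92 ± 0.76, adjusted p = 0.0177). Its estimate was 1.79 without KMF replicate 1, and the call was lost without ID8 replicate 1 (adjusted p = 0.0532) or ID8 replicate 2 (0.0557). Wnt10b overlapped between the lines (1.87 ± 0.62, adjusted p = 0.0482), and its call was lost in 10 of 14 alternatives, with a log2 fold change of 1.03 and an adjusted p of 0.17 without KMF replicate 1. The gene Wnt7b was not called (1.01 ± 0.45, adjusted p = 0.141), except without KMF replicate 3 (0.0181). Rspo1, the R-spondin 1 gene, had 32, 53 and 7 counts in ID8 and none in KMF, at least 10.2-fold lower against a floor of 3 counts per library. This limit leans on ID8 replicate 2, which holds 53 of the 92 counts of Rspo1, and would be lower without that library. Wnt16 had 24, 15 and 6 counts against 0, 0 and 1. Both were removed by the filter.

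Of 18 Wnt receptors 9 were in the table, with 7 called lower and 2 higher and a median of -1.0. Fzd8 went from 350, 389 and 263 counts in ID8 to 10 in each KMF library (log2 fold change -5.02 ± 0.29, edgeR adjusted p = 2.29e-05). The noncanonical receptor Ror1 was at -2.33 ± 0.18, Fzd6 at -1.87 ± 0.19 and Fzd4 at -1.06 ± 0.19. The exceptions were Fzd5 (0.99 ± 0.14) and the co-receptor Lrp5 (0.50 ± 0.08). Among 20 antagonists 5 were in the table and 4 fitted, of which 3 were higher and 1 lower (median 0.70). The secreted inhibitor Dkk2 was lower, at 4.73, 5.04 and 8.65 FPKM in ID8 and 0.620, 0.305 and 0.0652 in KMF (-4.23 ± 0.60), and at -5.11 without KMF replicate 1. The others are also known as target genes that feed back on the pathway, as Axin2 does. Notum, which inactivates Wnt ligands, had 10, 1 and 3 counts in ID8 and 43, 29 and 34 in KMF (2.98 ± 0.58, adjusted p = 0.0049), and was at 4.04 without ID8 replicate 1. Apcdd1 was at 1.002 ± 0.17 and Znrf3 at 0.39 ± 0.08. Sfrp1 was removed by the filter, with 16, 12 and 3 counts in ID8 and none in KMF, at least 3.33-fold lower against the same floor.

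Of 18 genes of the destruction complex and its regulators, 9 were in the table, with 3 called higher and 6 lower (median -0.31). Leaving out 1 library at a time, 2 were called higher each time and 4 to 6 lower. The largest differences were in Apc2 (-2.09 ± 0.28), in Btrc, the F-box protein that recognises phosphorylated beta-catenin (-1.29 ± 0.08, edgeR adjusted p = 2.92e-05), and in Tnks2, a tankyrase that destabilises Axin proteins (-0.89 ± 0.07). Gsk3a (0.42 ± 0.07), Dvl3 (0.31 ± 0.08, not called in 4 of 14 alternatives) and Siah1b (0.66 ± 0.17, adjusted p = 0.0188) were higher. The call of Siah1b was lost without ID8 replicate 2, ID8 replicate 3 or KMF replicate 1, with an adjusted p of up to 0.0564. Among nuclear factors of the pathway, 15 of 23 were in the table, with 5 higher, 8 lower and 2 not called (median -0.29). Beside Tcf7l1, those higher were the beta-catenin cofactor Bcl9l (0.69 ± 0.11), Tle3 (0.75 ± 0.21, not called without KMF replicate 1 or KMF replicate 2) and the corepressors Ctbp1 (0.49 ± 0.07) and Ctbp2 (0.46 ± 0.09). Those lower included Lef1 and the Groucho corepressors Tle1 (-1.50 ± 0.14) and Tle2 (-1.34 ± 0.32). Tle6 (-0.59 ± 0.22, adjusted p = 0.074) and Cby1 (0.26 ± 0.10, adjusted p = 0.0766) were not called, although Tle6 was under DESeq2, under upper quartile scaling and without KMF replicate 2, and Cby1 without ID8 replicate 2. The count of lower nuclear factors was 5 without ID8 replicate 1 and without any 1 of the KMF replicates.

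A further list held 34 genes known as beta-catenin targets in other tissues, and 15 of them were in the table. Of these 11 were called higher, 3 lower and 1 not, with a median log2 fold change of 0.85. That is the side of Axin2, Tcf7, Myc and Ccnd1 and opposite to Sp5. Over the alternatives without a passage term, 8 to 12 were called higher. Vegfa and Id2, both among the 11, overlapped between the lines (edgeR adjusted p = 0.0441 and 0.0366). After Notum the largest rises were in Birc5, the gene of survivin, from 8.08, 7.36 and 4.78 FPKM to 27.2, 27.1 and 35.3 (2.19 ± 0.20, edgeR adjusted p = 0.000141), and in Jun, from 12.2, 13.9 and 10.96 to 76.9, 34.1 and 32.2 (1.99 ± 0.34, adjusted p = 0.00244). Jun was highest in KMF replicate 1, the library that was also highest for Axin2 and Tcf7. The 3 that were lower were Lef1, Ccnd2 and the protease gene Mmp14 (-0.67 ± 0.13). Plaur was not called (0.80 ± 0.29, adjusted p = 0.066), except under DESeq2 (0.0265) and without ID8 replicate 2 (0.0157). Of 8 other genes of the Sp family only Sp8 was in the table, and its direction was opposite to that of Sp5. Sp8 had 8, 7 and 2 counts in ID8 and 33, 29 and 45 in KMF (2.66 ± 0.44, adjusted p = 0.00219).

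Of 22 partners and regulators of the D cyclins, 15 were in the table, with 11 higher, 3 lower and 1 not called (median 0.64). The largest rises were in the E2F family members E2f8, from 2.003, 1.91 and 1.25 FPKM to 8.10, 9.20 and 10.8 (2.48 ± 0.20, edgeR adjusted p = 8.17e-05), and E2f7 (2.23 ± 0.23). Cdkn2d, the gene of the Cdk4 inhibitor p19, went from 11.5, 11.02 and 10.1 to 38.5, 40.5 and 39.3 FPKM (1.90 ± 0.10, adjusted p = 1.23e-05), so an inhibitor of the kinase rose along with the cyclin. Lower were Cdkn1c (-2.94 ± 0.60, and -4.17 without KMF replicate 3), Rbl2 (-0.72 ± 0.09) and Ccnd2. Cdkn1a, the gene of p21, was not called (0.42 ± 0.15, adjusted p = 0.0691), but was called without ID8 replicate 2 (0.00265).

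Around Myc, 13 of 25 network genes were in the table, with 7 higher, 5 lower and 1 not called (median 0.42). Mxd3, which competes with Myc for Max, rose from 2.77, 2.62 and 1.72 FPKM to 16.3, 15.8 and 17.0 (2.82 ± 0.19, edgeR adjusted p = 3.74e-05). Lower were Mycn, Mycl, the glucose-responsive factor Mlxipl (-2.39 ± 0.29), Mga (-0.50 ± 0.10) and Trrap (-0.55 ± 0.16, not called without ID8 replicate 1, KMF replicate 2 or KMF replicate 3), and Pim1 was not called (0.43 ± 0.18, adjusted p = 0.118). Of 54 known Myc targets, many of them for ribosome assembly and nucleotide synthesis, 30 were in the table, with 23 higher and 7 lower (median 0.39). Their rises were small, the largest being in Ran, the nuclear transport GTPase (0.94 ± 0.09), Ldha, lactate dehydrogenase A (0.92 ± 0.21), and Ung, the uracil glycosylase (0.92 ± 0.20). Tert, the catalytic subunit of telomerase, was the target with the largest difference and was lower, at 1.54, 1.71 and 1.16 FPKM in ID8 against 0.483, 0.505 and 0.483 in KMF (-1.54 ± 0.23, adjusted p = 0.00145). Under upper quartile scaling 14 of the Myc targets, in place of 23, were called higher, and the median was 0.28, while over all fitted genes the share called higher was 35.3% and the median -0.35. Without ID8 replicate 1 the lower targets numbered 3, and without ID8 replicate 2, KMF replicate 2 or KMF replicate 3 they numbered 4.

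**Figure D4:**
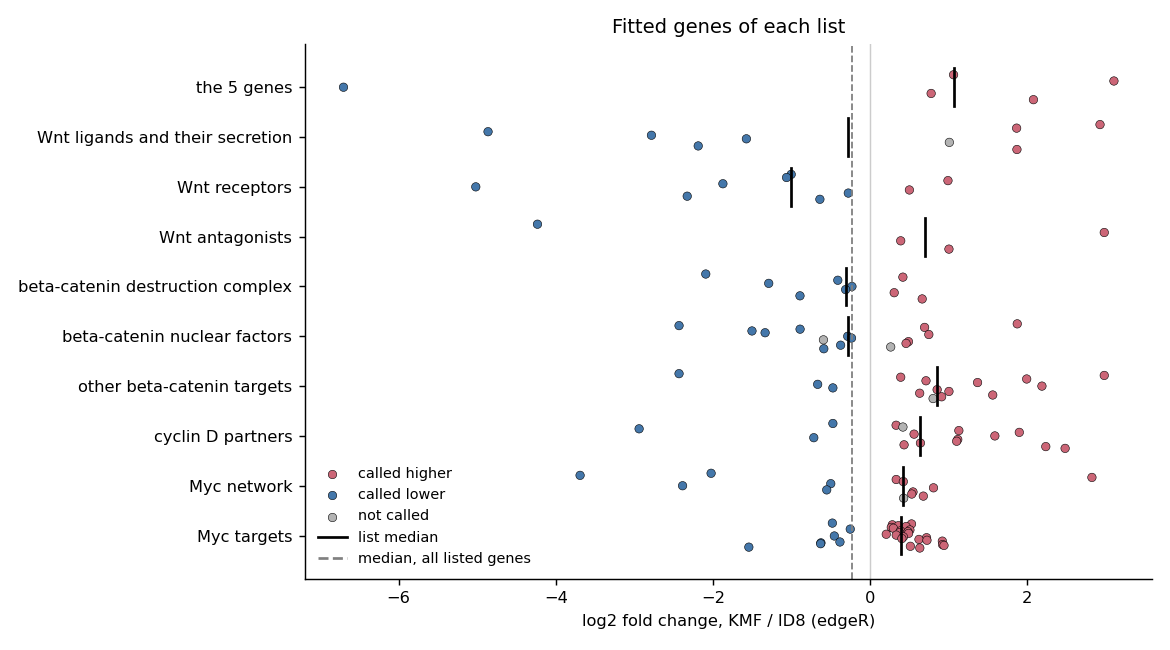
Log2 fold change of KMF over ID8 for each fitted gene of the 5 genes and of the lists with more than 1 gene (points, red called higher, blue called lower, grey not called), with each list's median (black line) and that of all 6967 fitted genes (dashed line). The point of Sp5, at the far left, is a fitted value that depends on how counts of 0 are handled, and lists of Wnt antagonists, beta-catenin targets, cyclin D partners, Myc network and Myc targets have medians above 0, while Wnt receptors have one of -1.0.

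Listed genes near each of the 5 on the chromosome were examined, within 1 Mb of either end of the gene. GENCODE M21 annotates 0 other protein-coding genes in that window around Myc, so Myc had no neighbour to compare. Around Ccnd1, 13 are annotated, and most of these are not in the table. Those in it numbered 3, each called higher, beside 45.4% of all fitted genes. They were Ano1 at a distance of 178 kb (0.35 ± 0.11, not called in 6 of 14 alternatives), Tpcn2 at 314 kb (0.92 ± 0.21, edgeR adjusted p = 0.00938) and Mrgprf at 361 kb, from 1.03 to 16.1 FPKM on average (4.003 ± 0.29, adjusted p = 4.97e-05). Neighbours of the other 3 genes included both higher and lower genes. Near Axin2, 6 genes were listed, all toward higher coordinates, with 2 higher and 4 lower (median -1.0), the nearest being Gm11696 at 402 kb (-1.36 ± 0.32) and the most changed Fam20a (-3.17 ± 0.53). The 2 higher genes, Gna13 (0.25 ± 0.08) and Wipi1 (0.35 ± 0.10), lost their calls in 11 and 9 of 14 alternatives, and both did without ID8 replicate 1, ID8 replicate 2, KMF replicate 1 or KMF replicate 3. Near Tcf7, 11 were listed, with 3 higher, 7 lower and 1 not fitted (median -0.34), among them Cdkl3 at 163 kb (-1.82 ± 0.18) and Col23a1 (2.54 ± 0.35). Of the 7 lower, Hspa4, Ube2b and 9530068E07Rik lost their calls without KMF replicate 2. Near Sp5, 12 were listed, with 2 higher, 6 lower, 3 not called and 1 not fitted (median -0.39). The nearest of these, Erich2 at 31.1 kb, was at 0.170 FPKM in ID8 on average and listed at 0 in KMF, and Klhl23 at 638.3 kb had 53, 46 and 31 counts in ID8 and 0, 2 and 0 in KMF, a ratio of pooled CPM of 65.5 (exact 95% interval 17.8 to 546.6, counting error only). Without KMF replicate 2, which holds both counts, Klhl23 was at least 15.05-fold lower against 3 counts per library. It passed the filter through ID8 alone, as Cybrd1 near Sp5 also did, and Col23a1 passed it through KMF alone. The other lower genes near Sp5, which were Ccdc173, Tlk1, Dync1i2 and Slc25a12, all lost their calls without KMF replicate 3.

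**Figure D5:**
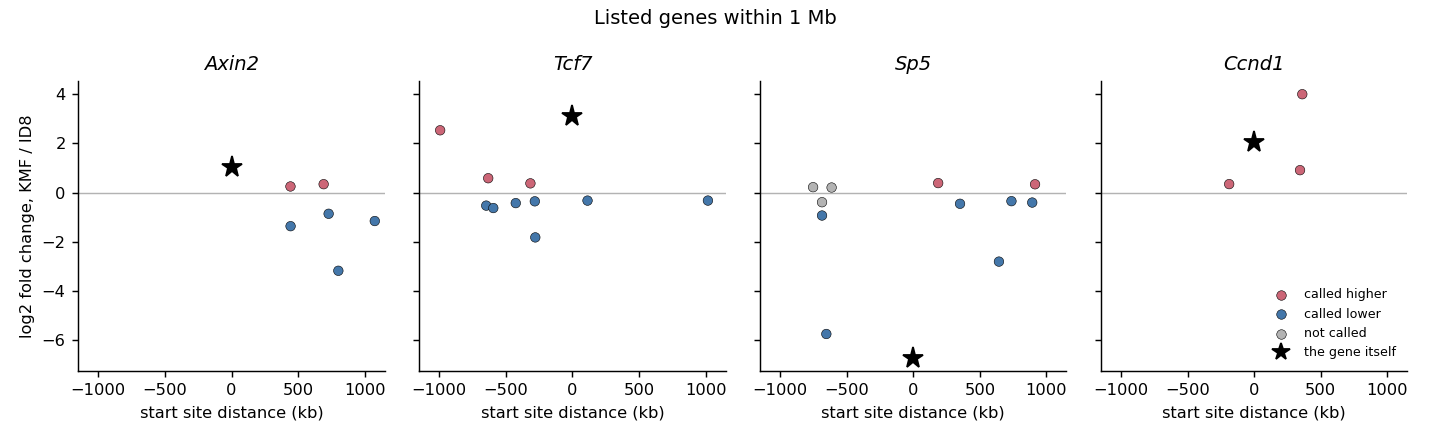
Log2 fold change (vertical axis) of fitted listed genes within 1 Mb of Axin2, Tcf7, Sp5 and Ccnd1 against the distance between start sites in kb (horizontal axis, positive toward higher coordinates), with the gene itself as a star. The 3 neighbours of Ccnd1 are above 0 like Ccnd1, whereas those of Axin2, Tcf7 and Sp5 lie on both sides of 0 (the star of Sp5 and the lowest point beside it, Klhl23, are fitted values that depend on how counts of 0 are handled).

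Genes whose profile over the 6 libraries was most like that of each of the 5 were found by the root mean square distance of centred log2 CPM (0 is an identical profile). For Ccnd1 the closest were S100a4 (0.0518), Itgb4 (0.102) and Nrn1 (0.116), against a median distance of 1.22 over fitted genes. S100a4 was also at a like level, at 41.9 FPKM in ID8 and 163.2 in KMF on average. For Axin2 they were Dusp1 (0.072), Ptgis (0.0857) and Col16a1 (0.0962), and for Myc they were Dusp4 (0.0992), Mfhas1 (0.1003) and Tex30 (0.107). Dusp1 and Dusp4 both encode phosphatases that act on MAP kinases. Tcf7 was closest to Adamtsl4 (0.127), Aqp5 (0.132) and Fsbp (0.144). Sp5 was closest to Ces1d (0.232), Tspan11 (0.309) and Cited1 (0.339), but with a prior count of 2 in place of 0.5 the closest were C1rb, Cited1 and Amhr2. With 6 libraries in 2 groups, closeness reflects mostly a like difference between the lines.

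Marker genes of cell types were looked up in the table, which lists only genes the authors called different. Markers at a like level in both lines would be absent from it, so these values do not check the labelled cell type. Of 12 markers of ovarian surface epithelium, 8 were in the table. Their summed level overlapped between the lines, at 149.4 to 226.2 FPKM in ID8 and 161.2 to 212.9 in KMF, with Msln and Wt1 as the most abundant. Msln was higher (1.45 ± 0.13), and Krt7 (-2.55 ± 0.39), Upk3b (-3.88 ± 0.57), Cdh1 (-3.55 ± 0.35), Epcam (-2.43 ± 0.37) and Wt1 (-0.45 ± 0.14, not called in 4 of 14 alternatives) were lower in KMF by edgeR. Fibroblast markers (4 of 7 in the table, all lower) summed to 77.3 to 107.3 FPKM in ID8 and 13.5 to 25.9 in KMF. Of 5 endothelial markers 2 were in the table, with summed levels of 0.0260 to 0.0877 FPKM in ID8 and 27.7 to 47.6 in KMF. The KMF sum was Tek alone, since Kdr was at 0 in all KMF libraries. Of 8 leukocyte markers only Cd74 was in the table, at 0.857 to 1.59 FPKM in ID8 and 0.215 to 0.391 in KMF. The part of these markers in the levels of the 5 genes was not tested. In bulk RNA, fewer cells that express a gene and less of its RNA per cell cannot be told apart.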

How the data were processed

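The members were taken by gene name, and they and the gene lists were chosen with earlier results of these data known. RNA was extracted from 3 independent tumorsphere cultures of each line, and poly-A libraries were sequenced by a service provider. The submitters' processing notes name CASAVA 1.8, STAR 2.5, DESeq2 and mm10, whereas the study's methods name TopHat2. The counting tool, the annotation release and the strand setting are not given in the sources used here. The authors deposited 1 table with a raw read count per gene and library, FPKM computed by the authors from counts, the deposited gene length and the fragments on genes, and the authors' mean normalised counts, fold change, p-value and adjusted p-value for KMF over ID8. The deposited p-values and adjusted p-values were used only to recover the number of genes tested (17359) from their ratio by rank. The fold change and mean columns were not used. The largest adjusted p-value was 0.0499. A total of 14 symbols turned into dates by a spreadsheet were restored from their identifiers, and 7286 of 7320 identifiers overlapped their GENCODE M21 position.

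Library totals were recovered from counts, FPKM and length. They were 29483419, 24140447 and 25662850 fragments in the ID8 libraries and 23583115, 23108407 and 33212313 in the KMF libraries, in replicate order, and the listed genes carried 52.8% to 55.9% of them. The counts entered the quasi-likelihood test of edgeR 4.0.16 (glmQLFit, glmQLFTest; R 4.3.3; two-sided) after TMM scaling and filterByExpr, which removed 353 genes. P-values were adjusted by the Benjamini-Hochberg procedure over 17359 genes, with genes outside the table ranked below those in it. On simulated counts of KMF against ID8, with 200 of 7320 genes changed by 1 log2 unit, 91% of these were called, with 3 false calls. The simulation gave all genes a common dispersion and drew the changed genes from those above a minimum mean count. It also left most genes unchanged, whereas 92.9% of the fitted genes were called in the data. Its rates therefore do not carry over to these data. Within each line every pair of libraries differed by more than sampling noise (lowest chi-square per degree of freedom 19.3). Ratios to counts near 0 have exact 95% intervals, which cover counting error only.

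Alternatives were DESeq2 1.42.0, library totals alone, upper quartile scaling, no filter, at least 10 counts in every library, limma 3.58.1 on log2(FPKM + 1) and log2(FPKM + 0.1) for genes with a mean above 1 FPKM over the 6 libraries, a replicate block, and leaving out each library. Fitted list genes that the rule below names or that complete a count of 5 or fewer, the neighbours and the markers were put through the same alternatives, and the 5 members through a fit with passage as a covariate, both choices made after seeing the data. For the closest profiles a prior count of 2 was tried. Named genes are the 5 members, 12 family genes, the 4 called genes of each list with the largest absolute log2 fold change, the 3 closest profiles per member, and the nearest listed gene on each side with up to 3 called genes within 1 Mb. Python 3.11.15, numpy 2.4.6, pandas 2.3.3 and matplotlib 3.10.9 were used for the rest.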

Additional observations from a re-analysis of the deposited data

How the results depend on the processing

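Axin2, Tcf7, Myc and Ccnd1 were higher in KMF and called in each of the 14 alternatives without a passage term, with log2 fold changes of 0.74 to 1.24, 2.51 to 3.30, 0.64 to 0.996 and 1.97 to 2.30. With passage as a covariate, chosen after seeing the data, Axin2 (0.49) and Myc (0.70) were no longer called, and 4224 genes were called in all. Sp5 passes the filter through ID8 alone, so its calls are no sign of stability. It was removed by the minimum of 10 counts and by the FPKM filter of both limma fits, so that 0 of the 5 genes were then called lower. The same 3 fits left 1 Wnt ligand called higher in place of 3, since Wnt1 was removed and Wnt10b was fitted but not called, and 0 genes of the Sp family in place of 1, since Sp8 was removed, and the minimum of 10 counts left 0 antagonists called lower. With DESeq2 and with no filter, 2 antagonists were lower in place of 1. Upper quartile scaling shifted the median of all fitted genes by -0.11 and called 14 Myc targets higher in place of 23. Leaving out 1 library gave 1 to 3 Wnt ligands higher (1 without ID8 replicate 1), 1 to 2 antagonists lower, 5 to 6 nuclear factors lower and 3 to 7 Myc targets lower, against 3, 1, 8 and 7, and 5189 to 5907 calls in all against 6470. Such fits have fewer samples. The spread of a line left with 2 libraries was taken from both lines. The log2(FPKM + 1) scale, which shrinks low genes by construction, put Fzd8 at -2.09, Wnt5a at -3.16 and Dkk2 at -2.40. The cause of the other shifts was not tested.

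Replicate numbers did not pair the libraries, as same-numbered deviations correlated at 0.0737, -0.0876 and 0.108, and ID8 replicate 2 correlated best with KMF replicate 1 (0.181). With a replicate block 5720 genes were called, 4 of the 5 members higher and 1 lower, and Axin2 was at 1.06 with an edgeR adjusted p of 0.0076. Cdkn1a and Pim1 were called under the block (0.0418 and 0.0346) and Wnt10b was not (0.0754). Depth limits Sp5, Wnt1, Notum, Sp8, Mycl, Cdkn1c, Lef1 and Klhl23, which rest on few counts in at least 1 line.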
